A study of Mus musculus with 12 samples.

Results

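Freshly isolated haematopoietic stem cells (HSCs) of old mice were compared with those of young mice, over 8 of the 12 RNA libraries of the series. All libraries of unstimulated cells were taken. They form 4 groups of 2: young wild-type (WT, replicates 1 and 2), young Cd38 knockout (KO, replicates 3 and 4), old WT (1 and 2) and old KO (3 and 4). Young animals were 2 months old and old ones 24 months, and every group was sorted as lineage-negative cells with c-Kit and Sca-1 on their surface. That gate holds progenitors as well as stem cells. The other 4 libraries, of young cells kept for 24 hours with cytokines, were not part of the comparison. The study asked how CD38, an enzyme that consumes NAD, bears on the activation and ageing of stem cells. Here the genotypes were pooled, with genotype as a term of the model, and a change was followed in the WT and KO libraries separately. The labels do not say which part of Cd38 was deleted, or whether libraries came from separate animals, so p-values measure the spread between these libraries, which may be technical.

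HSCs sit in the bone marrow, divide rarely and can rebuild all blood lineages. With age the pool of cells with a stem cell surface grows, while the output of each cell falls and leans towards myeloid cells and platelets. Genes such as Selp, Clca3a1, Nupr1 and Sult1a1 are known to rise in old HSCs, and genes of lymphoid priming to fall.

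Levels are CPM, a gene's counts relative to the scaled total of its library. Young libraries held 1600155 to 1963635 counts and old ones 3796591 to 5164720. Every old library was thus the deeper one, and age cannot be told apart from depth or from any other step in which the sets of libraries differed. After thinning to 1 depth, young libraries showed 9050 to 9958 genes and old ones 9241 to 9843. Log2 levels correlated across genes, which are not independent replicates, at 0.672 to 0.717 within a group and 0.626 to 0.699 between ages. Young WT 1 had no Xist count and 192 CPM from Y-linked genes. Xist stood between 188 and 695 CPM in the remaining libraries, whose Y-linked sum did not exceed 0.485 CPM, so young WT 1 and young WT 2 were of different sex.

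The sorting markers were present in every library. Kit, which encodes c-Kit, stood at 302, 321, 307 and 192 CPM in young WT 1, young WT 2, young KO 3 and young KO 4, and at 399, 374, 272 and 274 CPM in old WT 1, old WT 2, old KO 3 and old KO 4; all further values keep this order. Ly6a, which encodes Sca-1, had 69.0 to 128 CPM in young and 99.1 to 168 CPM in old libraries. The ages overlapped for both genes, with log2 changes (old minus young) of 0.22 ± 0.24 for Kit (SE, n = 4 libraries per age, adjusted p = 0.863) and 0.29 ± 0.37 for Ly6a (adjusted p = 0.899). Cd38 had counts in all libraries, KO ones included, at 12.6 to 70.3 CPM, and changed by -0.04 ± 0.95 (adjusted p = 1.00). Because the reads come from the 3′ end and may miss whatever was deleted, these counts check no label. Of other HSC markers, picked from the list by name, Meis1 had 170 to 376 CPM, Procr 84.5 to 362 CPM, Mecom 62.8 to 309 CPM and Hlf 364 to 940 CPM, while Slamf1 was low, at 0 to 52.7 CPM.

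Old and young HSCs differed in 222 of the 10680 genes tested, by edgeR's quasi-likelihood test at a Benjamini-Hochberg adjusted p under 0.05, the threshold for a call throughout. Of these, 148 genes rose (1.39% of those tested) and 74 fell (0.693%). Of the called genes, 132 rises and 67 falls exceeded log2 1, and the median change over all tested genes was 0.04. The test favours large changes: in simulated counts it recovered 2.99% of changes of log2 1 and 19.4% of log2 2. The sizes of called genes therefore do not describe the size of age changes in general. Fewer falls were called without young WT 1 or young WT 2, with 1 library left in that group and the same genes tested. With the low-count filter applied anew to the remaining libraries, more were called than in the full fit. All 222 called genes kept their sign in these fits.

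The change was then looked for in each genotype. Both old libraries lay beyond both young ones in WT and again in KO for 146 of the 148 rises and all 74 falls. Among all tested genes, 724 (6.78%) stood higher in that way and 599 (5.61%) lower, most of them without a call. All 222 genes had the same sign in both genotypes. The pooled test, on the same libraries, favours genes without overlap and genes with the same sign, so both shares are descriptions. Tested alone, WT gave 86 calls (0.805%), 64 higher and 22 lower, and KO gave 93 (0.871%), 72 higher and 21 lower. WT and KO changes share no library. Of the 86 genes called in WT, 82 had the same sign in KO, with a median change of 2.01 in WT and 1.48 in the same direction in KO. Of the 93 called in KO, 91 had the same sign in WT (2.01 and 1.51), and 44 genes were called in both. Fewer WT genes were called without either young WT library, and fewer KO genes without either old KO library, with the same genes tested. Each such fit leaves 1 library in a group. With the low-count filter applied anew, these counts exceeded those of the full fit.

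The likeness of the genotypes grew with expression. Pearson's r between the WT and KO changes was 0.113 over all 10680 genes and 0.460 over the 3566 genes with a mean of 50 CPM or more. It was 0.611 over the 1828 genes at 100 CPM or more and 0.854 over the 259 at 500 CPM or more, where 83.8% of genes had the same sign. These are descriptions across genes of 8 libraries, and both genotypes share the difference in depth.

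**Figure D1:**
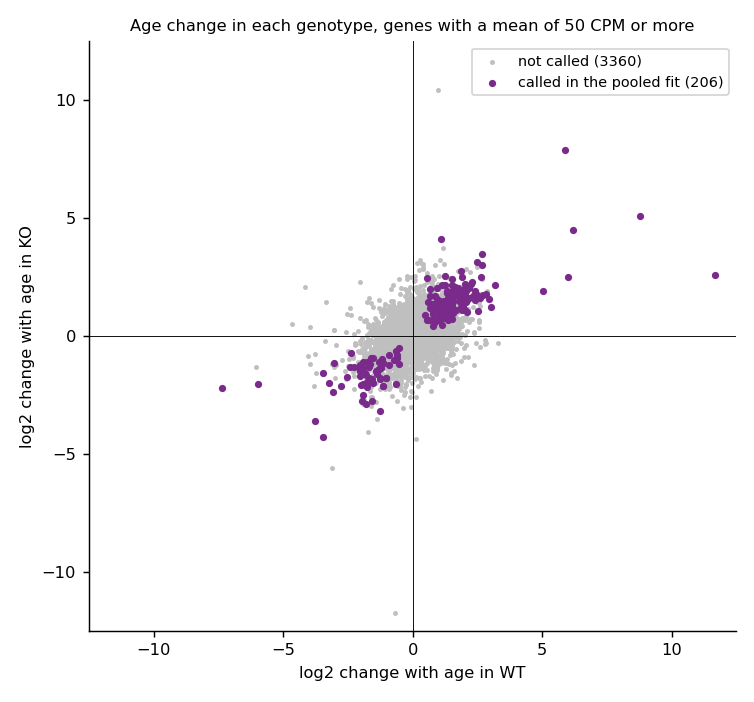
Log2 change with age in WT (x axis) against KO (y axis) for the 3566 genes with a mean of 50 CPM or more, each point a gene. The 206 genes called in the pooled fit (purple) lie in the quadrants where both genotypes moved the same way.

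No gene passed the test of the interaction, the age change in KO minus that in WT (0% of 10680 by edgeR; 587 genes had an unadjusted p under 0.05, and DESeq2 called 104). The smallest p-values belonged to Akap7, a kinase A anchor, Bnip2, an apoptosis regulator, and Frg1, a nuclear RNA-binding protein. Frg1 stood at 92.6, 33.3, 109 and 88.5 CPM in young libraries and at 20.3, 20.8, 0 and 0 CPM in old ones. Bnip2 stood at 156, 125, 51.6 and 94.5 CPM in young and at 2.76, 8.26, 106 and 105 CPM in old libraries, low in old WT alone. Akap7 had 37.0 to 242 CPM in young libraries, 71.8 and 6.27 CPM in old WT and 0 in old KO. Their interaction terms were -11.05 for Akap7, 5.2 for Bnip2 and -9.63 for Frg1, each with an adjusted p of 0.257 by edgeR. DESeq2 called all 3, at adjusted p = 0.000104, 1.31e-05 and 0.000232, and without old WT 2 edgeR called Akap7 (adjusted p = 0.011).

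Among the 10 largest rises, Cks2, a small subunit of cyclin-dependent kinases (RefSeq, build GRCm38.p6, chromosome 13, 51645232 to 51650662), was near absent from young cells. It had 2.42, 2.73, 1.46 and 0 CPM in young and 103, 208, 139 and 225 CPM in old libraries, a log2 change of 6.73 ± 0.71 (adjusted p = 1.64e-05). Clca3a1, a chloride channel accessory protein (chromosome 3, 144729677 to 144760977), had 0.605, 0, 1.46 and 10.5 CPM in young and 180, 112, 198 and 210 CPM in old libraries. The old libraries lay above every young one for both genes, and Clca3a1 rose by 6.19 ± 0.78 (adjusted p = 0.000116). Nupr1, a stress-induced nuclear protein (chromosome 7, 126623246 to 126625470), went from 3.02, 1.64, 0.973 and 7.998 to 172, 175, 134 and 68.2 CPM (5.29 ± 0.72, adjusted p = 0.000248). All 3 were called in WT and in KO alone, and with each library left out.

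Bmp4, a secreted growth factor of the TGF-beta family, had 0 counts in all 4 young libraries and 46.2, 55.3, 18.8 and 41.0 CPM in old ones. Against a floor of 3 counts over the young libraries it was at least 98.7-fold higher (adjusted p = 0.0118), which covers counting error only, as do all bounds and intervals here. Klrb1c, the NK1.1 receptor of natural killer cells, had 1 count in young libraries and 942 in old ones, a ratio of 416 (95% counting interval 74.5 to 16450). It stood at 14.8, 99.4, 39.2 and 70.6 CPM in old cells. Of the 20 genes of the T and NK cell list, 12 had no count in any of the 8 libraries, among them Cd3e, Cd3d, Il2rb, Ncr1 and Gzma. The list summed to 66.9 to 161 CPM in young and 182 to 286 CPM in old libraries. Gata3, which was not called, held 30.2 to 142 CPM of it in young and 83.5 to 176 CPM in old libraries. Klrb1c was the 1 called gene among the 6 members tested (16.7% against 1.39%). Klrb1c missed the threshold without old WT 2 (adjusted p = 0.0524).

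The other large rises varied more between old libraries. Chrm3, a muscarinic acetylcholine receptor, had 111 and 173 CPM in old WT against 16.6 and 21.0 CPM in old KO, and 7.26 CPM or 0 in young libraries (5.96 ± 1.16). Atp5l, a subunit of ATP synthase, had 0.4999 to 1.21 CPM in young and 3.51, 47.6, 89.2 and 90.6 CPM in old libraries (5.63 ± 1.25). Gpr183, an oxysterol receptor that guides immune cells, had 0, 0, 2.92 and 19 CPM in young and 150, 115, 68.4 and 62.1 CPM in old libraries (4.98 ± 1.26). Pbxip1, a partner of PBX factors, rose by 5.46 ± 1.27. Fiz1, a zinc finger protein that binds Flt3, had 2 counts in young and 673 in old libraries (ratio 149, 95% counting interval 41.0 to 1230). Without old WT 2, Chrm3 (adjusted p = 0.0687) and Atp5l (0.164) were not called, and Atp5l was not without old KO 3 (0.0879) or old KO 4 (0.102). Gpr183 was not called without young WT 1, young WT 2, young KO 3, old WT 1 or old WT 2 (0.0667 to 0.126), or with counts thinned to equal depth (0.0529). Pbxip1 was not without young WT 2, young KO 3, young KO 4, old WT 1 or old KO 4 (0.0539 to 0.123). Fiz1 was not without young WT 1, young WT 2, young KO 4, old WT 1 or old KO 3 (0.0832 to 0.39), or with thinned counts (0.0825).

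**Figure D2:**
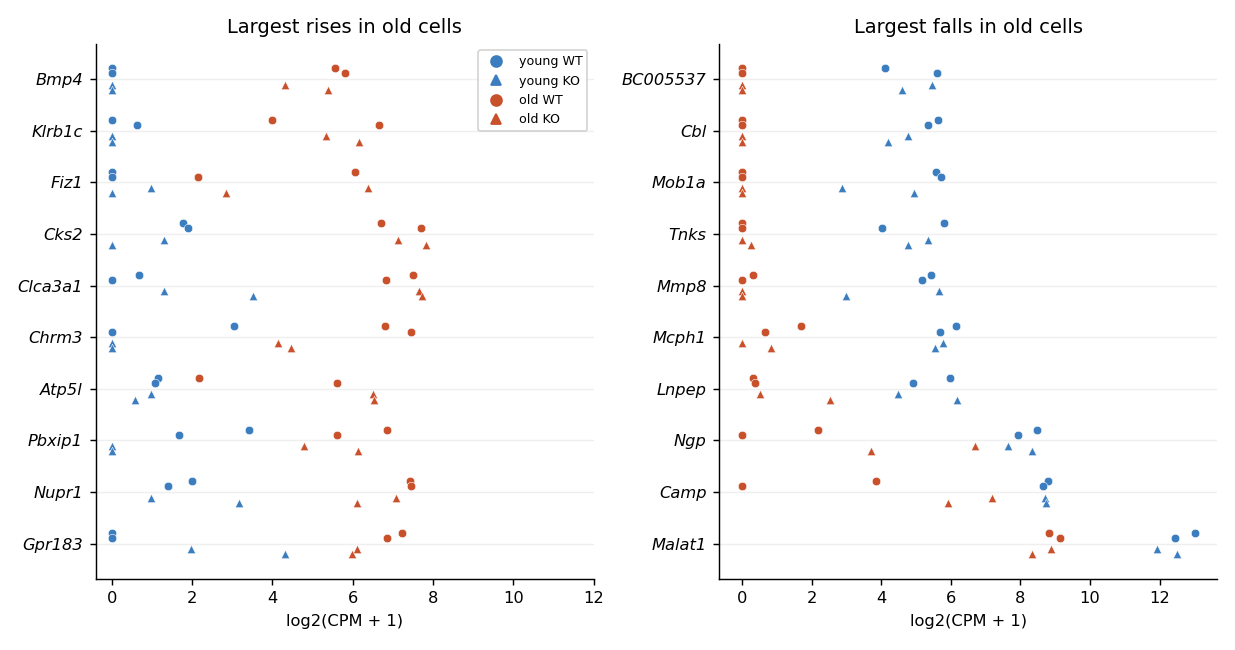
Level in each library, as log2(CPM + 1), of the 10 genes with the largest rise (left) and the 10 with the largest fall (right); circles are WT, triangles KO, blue young and orange old. In each genotype the old points lie beyond the young ones, and Bmp4 in young and BC005537, Cbl and Mob1a in old libraries sit at 0.

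Malat1, a long non-coding RNA kept in nuclear speckles (chromosome 19, 5795690 to 5802672), had the smallest adjusted p of all genes. It stood at 8266, 5546, 3893 and 5766 CPM in young and at 448, 558, 470 and 324 CPM in old libraries. Every young library was above every old one, and the fall was -3.69 ± 0.19 (adjusted p = 1.98e-09), with -3.78 in WT and -3.61 in KO. Of the 7 tested genes of the list of nuclear RNAs, Malat1 alone was called (14.3% lower against 0.693%), and the median of the list was 0.16. Its call held with each library left out. The other tested members included Gas5 (0.51, adjusted p = 0.0839) and Neat1 (1.71, adjusted p = 0.382), and both had higher values in old cells of each genotype.

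Other large falls were in genes of low level. Cbl, a ubiquitin ligase that ends receptor tyrosine kinase signalling, had 49.0, 39.3, 26.3 and 17.5 CPM in young libraries and 0 counts in old ones, at least 183-fold lower. Mob1a, an adaptor of the Hippo kinases, and BC005537 also had 0 counts in old libraries (at least 184-fold and 187-fold lower). Tnks, the ADP-ribosyltransferase tankyrase, had 253 counts in young and 1 in old libraries (ratio 573, 95% counting interval from 102). Mcph1, which restrains chromosome condensation, had 45.5 to 69.6 CPM in young and 2.26 CPM or less in old libraries (-6.04 ± 1.25, adjusted p = 0.0118). Lnpep, an aminopeptidase, had 21.4 to 71.0 and 0.251 to 4.75 CPM (-5.48 ± 1.40, adjusted p = 0.0482). Tnks was also the 1 gene called among 26 of NAD synthesis and use (3.85% against 0.693%), a list that bears on CD38 and whose median was -0.02. Without overlap in each genotype, 5 of the 26 stood lower and none higher, against 5.61% and 6.78% of all tested genes. None of the 6 genes described here with large falls was in a list of markers of another blood cell type.

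Several of these calls needed all libraries. Without young WT 1, Mcph1 (adjusted p = 0.061), Tnks (0.0822), Cbl (0.0723) and Mob1a (0.0678) missed the threshold. Without young WT 2, Cbl (0.0556), Mob1a (0.0825) and BC005537 (0.0861) did, and without young KO 3 BC005537 did (0.0515). Lnpep missed it in 6 of the 8 fits, all but those without young KO 3 or old KO 4 (0.0861 to 0.203), and also with voom (0.0606) or thinned counts (0.0949).

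Genes known to rise in old HSCs rose here. Their list was taken from general knowledge of the field. Like all lists here, it was written with earlier results of these data known, so its shares are descriptions. Of 50 tested members, 7 were called higher and none lower (14.0% against the 1.39% of all genes), and 44 had a positive change with a median of 1.56 against 0.04 over all genes. The called members were Clca3a1, Nupr1, Gpr183, Sult1a1, Mt2, Selp and Cyp26b1, the last named after its values were seen to complete the set. Sult1a1, a sulfotransferase, stood at 79.9, 83.1, 48.6 and 104 CPM in young and at 434, 360, 432 and 322 CPM in old libraries (2.29 ± 0.30, adjusted p = 0.000153). Its change was 2.28 in WT and 2.30 in KO. Selp, the adhesion receptor P-selectin, stood at 29.6, 64.5, 28.2 and 51.0 CPM in young and at 182, 137, 102 and 225 CPM in old libraries (1.90 ± 0.44, adjusted p = 0.028). Cyp26b1, which degrades retinoic acid, had 0, 12.6, 0 and 52.5 CPM in young and 464, 353, 153 and 146 CPM in old libraries (4.13 ± 1.03, adjusted p = 0.0421). The list's median was 2.02 in WT and 0.86 in KO, a difference that was not tested. Its calls numbered 4 without young WT 1 or old WT 1, and Selp missed the threshold without young WT 1 (0.0748), young KO 3 (0.0611), old WT 1 (0.083) or old KO 4 (0.197), and with voom (0.0553). Cyp26b1 missed it without young WT 1 (0.0852), young WT 2 (0.152) or old WT 1 (0.0715), and under DESeq2 (0.167).

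Mt2, a metallothionein that binds zinc and copper, was also a member of this list. It stood at 4.84, 7.65, 19.9 and 40.5 CPM in young and at 251, 160, 110 and 118 CPM in old libraries (3.39 ± 0.65, adjusted p = 0.0068). Mt1, its neighbour on chromosome 8, stood at 12.1, 27.3, 13.1 and 37.5 CPM in young and at 111, 130, 77.2 and 43.9 CPM in old libraries. The ages did not overlap for Mt1, yet it missed the threshold (1.93 ± 0.64, adjusted p = 0.174; DESeq2 called it, at 0.0113). For Mt2 the change was 5.03 in WT and 1.91 in KO, and the difference did not pass (interaction adjusted p = 0.845).

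For each metallothionein gene 250 bases before a RefSeq transcript start are shown, because both are known targets of the zinc-sensing factor MTF-1; they were chosen after their values were seen. Both lie on the plus strand of build GRCm38.p6, Mt1 at chr8:94178839-94179088 and Mt2 at chr8:94172368-94172617. The Mt2 window ends at the start of the gene's annotation (94172618). The RefSeq annotation of Mt1 as a whole begins further upstream, at 94178883, so 206 bases of its window lie inside the annotated gene. Capitals mark matches on either strand to the core of the metal response element, searched as TGCACNC and TGCGCNC.
Mt1: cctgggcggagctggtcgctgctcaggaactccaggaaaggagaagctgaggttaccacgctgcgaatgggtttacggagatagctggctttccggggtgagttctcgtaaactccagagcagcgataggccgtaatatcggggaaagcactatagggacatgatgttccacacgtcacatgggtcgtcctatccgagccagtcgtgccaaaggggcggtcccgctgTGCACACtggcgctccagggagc
Mt2: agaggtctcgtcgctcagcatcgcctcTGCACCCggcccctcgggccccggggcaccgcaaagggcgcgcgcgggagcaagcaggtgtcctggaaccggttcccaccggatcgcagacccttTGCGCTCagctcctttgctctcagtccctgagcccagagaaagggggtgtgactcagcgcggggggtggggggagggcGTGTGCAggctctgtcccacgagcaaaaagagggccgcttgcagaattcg
Mt1 held 1 match and Mt2 held 3. Of 32851 RefSeq promoter windows of this length, 21.4% held at least 1 and 1.26% at least 3. A match is a run of letters and no evidence of binding in these cells. The Mt1 window lies mostly inside the annotated gene and that of Mt2 before it, so their counts of matches do not compare like stretches.

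Genes known to fall in old HSCs fell less clearly. Of 19 tested, 1 was called lower and none higher (5.26% against 0.693%), and the median was -0.87. Within a genotype it was smaller, at -0.365 in WT and -0.566 in KO. The called gene was Cd34, a sialomucin of progenitors and endothelium, at 327, 379, 416 and 414 CPM in young and 63.5, 156, 163 and 212 CPM in old libraries. Each old library lay below each young one (-1.42 ± 0.30, adjusted p = 0.0145), and without young WT 2 the adjusted p was 0.0559. Lig1, the DNA ligase of replication, stood at 326, 338, 183 and 193 CPM in young and at 129, 130, 112 and 160 CPM in old libraries (-0.91 ± 0.30, adjusted p = 0.164). Lmnb1, a nuclear lamina protein, went the other way, at 1052 to 1313 CPM in young and 1120 to 2093 CPM in old libraries (0.54 ± 0.18, adjusted p = 0.186). Gpr171, a receptor of lymphoid-biased progenitors, changed by -1.70 (adjusted p = 0.268) with overlapping ages. DESeq2, voom and the fit without old WT 2 each called 1 member of the list higher. Cd34 was also the 1 gene called among 19 of multipotent and lymphoid-primed progenitors (5.26% lower against 0.693%). In bulk RNA, fewer cells of a type and less RNA per cell cannot be told apart.

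In the list of long-term HSC identity, 3 of 36 genes were called higher (8.33% against 1.39%) and 1 lower (2.78% against 0.693%), with a median of 0.31. Beside Sult1a1, which the list of rising genes also holds, these were Tgm2 and Ifitm3. Tgm2, a transglutaminase, stood at 69.0, 65.6, 95.4 and 92.0 CPM in young and 420, 296, 286 and 260 CPM in old libraries (1.98 ± 0.31, adjusted p = 0.00107). Ifitm3, a membrane protein that blocks virus entry, stood at 206, 180, 154 and 290 CPM in young and 743, 729, 594 and 446 CPM in old libraries (1.58 ± 0.26, adjusted p = 0.00173). Both genes kept their call with each library left out. Ifitm3 was the 1 gene called among 44 of the interferon response (2.27% against 1.39%), whose median was 0.15.

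Hlf, a transcription factor that marks the most primitive HSCs, moved the other way. It stood at 914, 876, 750 and 940 CPM in young and at 507, 722, 364 and 371 CPM in old libraries (-0.87 ± 0.21, adjusted p = 0.0373). It passed in 1 of 8 fits with a library left out, that without old WT 2, and stood at 0.0596 to 0.157 in the others.

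Megakaryocyte and platelet genes leaned upwards, with 3 of 27 called higher and none lower (11.1% against 1.39%) and a median of 0.80. The median was 0.30 in WT and 1.38 in KO, a difference that was not tested. Without overlap in each genotype, 4 of the 27 stood higher and 2 lower, against 6.78% and 5.61% of all tested genes. Pf4, a platelet chemokine, stood at 311, 157, 265 and 532 CPM in young and at 464, 278, 1984 and 1178 CPM in old libraries. Its ages overlapped, and the rise was largest in the old KO libraries (1.33 ± 0.33, adjusted p = 0.0408). Fli1, a transcription factor of megakaryocytes and HSCs, stood at 237, 303, 298 and 332 CPM in young and at 430, 499, 626 and 567 CPM in old libraries (0.85 ± 0.22, adjusted p = 0.048). Itgb3, the platelet integrin beta chain, did not overlap, at 3.89 to 15.5 CPM in young and 36.6 to 92.3 CPM in old libraries (2.72, adjusted p = 0.126). The third called gene was Selp. The summed level of the list was 1670 to 2190 CPM in young libraries and 2560, 2520, 5150 and 3830 CPM in old ones.

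The megakaryocyte calls depended on single libraries. Without young KO 3, old WT 1 or old KO 4 none of the 27 genes was called, and 1 was without young WT 1, young KO 4 or old KO 3. Fli1 missed the threshold with each of the 8 libraries left out (0.0752 to 0.151) and with RLE scaling (0.0555). Pf4 missed it under DESeq2 (0.0716) and in 6 of 8 fits, all but those without young WT 1 or old WT 2 (0.0524 to 0.141). Of other lineages, the erythroid list had 1 of 13 genes called (7.69% against 1.39%). This was the carbonic anhydrase gene Car1, at 47.7 to 176 CPM in young and 127 to 607 CPM in old libraries (1.96 ± 0.46, adjusted p = 0.0297). Car1 missed the threshold without young WT 1, young KO 3, old WT 1 or old KO 4 (0.0808 to 0.206).

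Some neutrophil genes fell in old cells. Of 22 tested members of the granulocyte and neutrophil list, 5 were called lower and none higher (22.7% against 0.693%), and the median was -2.20 (-1.47 without young WT 1). S100a8 and S100a9, which together form calprotectin, were the most abundant. S100a8 stood at 5481, 2637, 2416 and 3082 CPM in young and at 726, 276, 1831 and 648 CPM in old libraries (-2.08 ± 0.40, adjusted p = 0.0069). S100a9 stood at 2855, 1663, 1662 and 2411 CPM in young and at 417, 70.7, 855 and 182 CPM in old libraries (-2.59 ± 0.48, adjusted p = 0.00474). Old KO 3 was the highest old library for both, and each old library lay below each young one.

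The antimicrobial peptide gene Camp stood at 447, 403, 419 and 423 CPM in young and at 13.3, 0, 145 and 59.6 CPM in old libraries (-3.91 ± 0.86, adjusted p = 0.018). Ngp, a granule protein, stood at 353, 245, 200 and 323 CPM in young and at 3.51, 0, 103 and 12.1 CPM in old libraries (-4.47 ± 1.03, adjusted p = 0.0267). Mmp8, the neutrophil collagenase, had 251 counts in young and 1 in old libraries (ratio 568, 95% counting interval from 101). The falls of the first 4 were larger in WT, at -7.34 against -2.19 for Ngp, but no interaction passed (adjusted p = 0.534 for Ngp, 0.845 for Camp). Camp (0.0805) and Ngp (0.107) missed the threshold without old WT 1, and Mmp8 without young WT 1 (0.0634) or young KO 3 (0.0693).

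The list covers cells that the lineage gate should remove. It summed to 9910, 5390, 5420 and 6690 CPM in young and 1520, 527, 3300 and 1250 CPM in old libraries. Every young sum was above every old one. For 10 of the 22 tested genes both old libraries lay below both young ones in WT and in KO. Of all tested genes, 5.61% did so. Ly6g, the surface marker of neutrophils, had counts in 1 library only, old WT 1, and Cebpe in young KO 4 only. The granule enzyme gene Mpo, which progenitors also express and which was picked after its values were seen, stood at 33.5 to 59.8 CPM in young and 0 to 81.1 CPM in old libraries and was not called (-0.55, adjusted p = 0.946). Prtn3, Elane and Ctsg, further granule enzyme genes picked after their values were seen, were not called either. Prtn3 had 46.0 to 72.0 CPM in young and 55.3 to 207 CPM in old libraries. Elane had 16.5 to 33.9 and 0 to 26.5 CPM, and Ctsg 3.41 to 36.9 and 0 to 48.5 CPM. The part of carried-over neutrophil RNA in the falls of this list was not tested. Monocyte, macrophage and dendritic genes had no call among 13 tested, and their sum overlapped between ages, at 113 to 412 and 126 to 345 CPM.

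**Figure D3:**
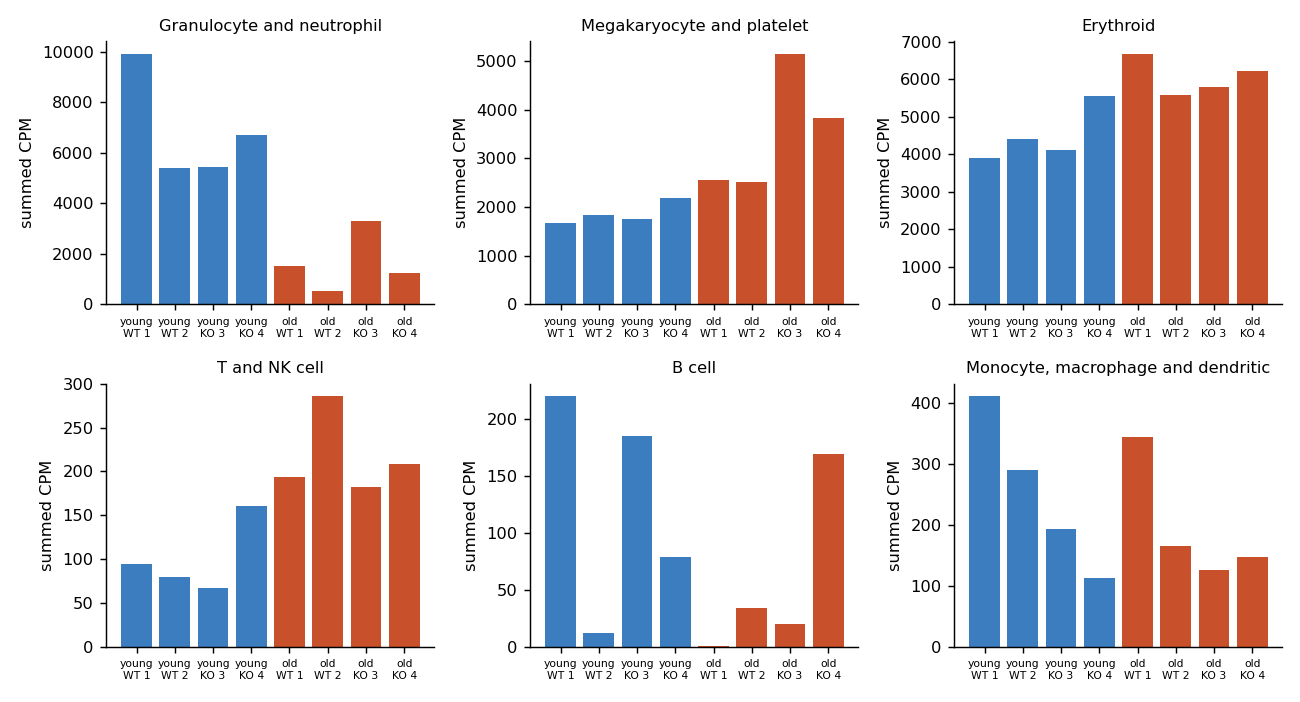
Summed CPM of the genes of 6 blood cell lists in each library, young in blue and old in orange, 1 bar per library. The neutrophil sum is higher in each young library. The megakaryocyte, erythroid and T and NK sums are higher in each old one, and the B cell and monocyte sums overlap. The erythroid sums nearly meet, at 5560 CPM in young KO 4 and 5580 CPM in old WT 2. Most of the erythroid sum is Car2, which was not called (0.40 ± 0.14, adjusted p = 0.189). The T and NK sum includes Gata3, also not called, and Klrb1c.

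Ribosomal protein genes held the largest group of calls. Of 81 genes, 27 rose (33.3% against 1.39%) and 5 fell (6.17% against 0.693%), with a median of 0.35. Rpl41 stood at 157, 160, 151 and 62.0 CPM in young and at 1002, 1030, 894 and 805 CPM in old libraries (2.84 ± 0.26, adjusted p = 6.19e-06). Rps16 stood at 708, 606, 523 and 546 CPM in young and at 2474, 4455, 2110 and 1941 CPM in old libraries (2.16 ± 0.19, adjusted p = 5.66e-06). Rpl35a (1.59 ± 0.15) and Rplp2 (1.89 ± 0.19) rose with no overlap, and these 4 genes were called in WT and in KO alone. Between 25 and 28 members were called higher when a library was left out, and the median was 0.22 without young WT 2 and 0.21 without old WT 2.

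Among the 5 genes that fell were Rps9, Rps14, Rpl4 and Rpl13, named after their values were seen. Rps9 stood at 3687, 3879, 4085 and 4361 CPM in young and at 1894, 2752, 2040 and 2170 CPM in old libraries (-0.85 ± 0.15, adjusted p = 0.00266). Rpl4 stood at 5197, 7005, 7983 and 9113 CPM in young and at 4393, 3604, 5024 and 4811 CPM in old libraries (-0.70 ± 0.13, adjusted p = 0.00463). So members of 1 complex moved in opposite directions. Rps9 and Rpl4 kept their call with each library left out. Rpl13 missed the threshold without young WT 2, young KO 3 or old KO 4 (0.0532 to 0.0944), and Rps14 without young WT 2, young KO 3, old WT 1, old KO 3 or old KO 4 (0.0784 to 0.0902). The list then had 3 falls without young WT 2, young KO 3 or old KO 4. The summed level of the 81 genes was 156000 to 176000 CPM in young and 176000 to 248000 CPM in old libraries. Ribosomal protein genes have near-identical pseudogenes, and how reads were split among them is not known: of 7 pseudogene rows tested, 1 was called higher.

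**Figure D4:**
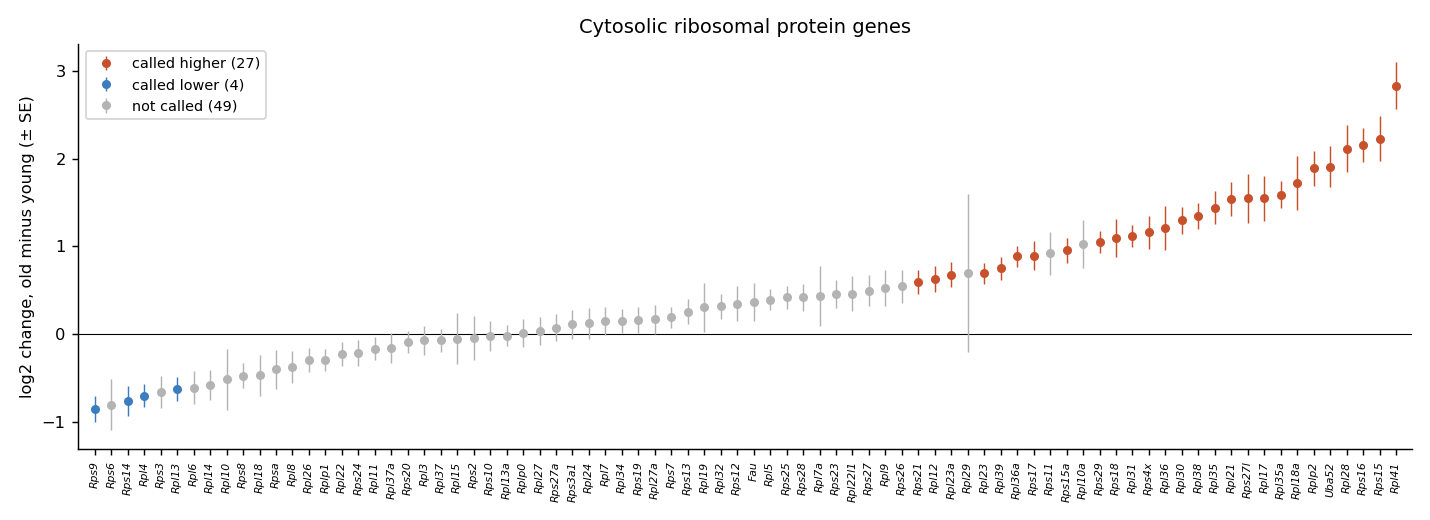
Log2 change with age (± SE) of 80 of the 81 cytosolic ribosomal protein genes, in order of size; orange genes were called higher in old cells, blue lower, grey not called. Rpl41 is at the top with 2.84 and Rps9 at the bottom with -0.85.

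Nuclear-encoded subunits of the respiratory chain also rose, 10 of 76 tested and none lower (13.2% against 1.39%), with a median of 0.33. Cox7c, a subunit of cytochrome oxidase, stood at 172, 147, 175 and 190 CPM in young and at 733, 686, 472 and 600 CPM in old libraries (1.85 ± 0.24, adjusted p = 0.000116). Uqcrb, of complex III, stood at 505, 476, 718 and 394 CPM in young and at 1071, 1149, 1022 and 1107 CPM in old libraries (1.06 ± 0.21, adjusted p = 0.00743). Cox8a, of cytochrome oxidase, rose by 2.02 ± 0.43 (adjusted p = 0.0151). Cox7c and Uqcrb kept their call with each library left out, and Cox8a did not without old WT 2 (0.0549). The count fell to 2 without old WT 2, 3 without old KO 3, 4 without young WT 1, 5 without young WT 2 and 6 without young KO 4 or old WT 1.

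The part of the chain encoded in mitochondrial DNA did not follow. Of 11 tested genes, ND1, a core subunit of complex I, was called, and it was lower (9.09% against 0.693%). The median of the 11 was -0.51. ND1 stood at 12180, 11950, 10570 and 11040 CPM in young and at 9234, 7743, 7846 and 7345 CPM in old libraries (-0.51 ± 0.10, adjusted p = 0.0101). Its change was -0.51 in WT and -0.51 in KO, and its call held with each library left out. The sum of the list was 36800 to 41800 CPM in young and 27400 to 39100 CPM in old libraries.

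Ribosomal and respiratory chain subunits are short transcripts, so calls were counted by transcript length. Lengths were the longest GENCODE transcript of a symbol, known for 10224 genes (95.7%); they were looked up after the calls had been seen. In 5 classes of equal size, from the shortest transcripts to the longest, 53, 29, 16, 21 and 27 genes were called higher and 19, 8, 9, 14 and 20 lower. The shortest class, of 70 to 1969 bases, thus held the most rises, and its median change over all genes was 0.00. Of the 53, 23 belonged to neither list.

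Of 50 G2/M and mitosis genes, 3 rose (6% against 1.39%) and none was called lower, while the median was -0.19 (0.00 without young WT 2): Cks2, Stmn1, which destabilises microtubules, and Mki67, the Ki-67 antigen of cycling cells. Mki67 stood at 76.8, 27.9, 98.8 and 51.0 CPM in young and at 174, 131, 208 and 285 CPM in old libraries (1.63 ± 0.39, adjusted p = 0.0345). Stmn1 rose by 1.26 ± 0.27 (adjusted p = 0.0171). DESeq2 called 3 genes of the list higher and 6 lower. For 4 of the 50 both old libraries lay above both young ones in each genotype, and for 6 below. Of all tested genes, 6.78% and 5.61% did so. Top2a was among the 6, at 606, 469, 446 and 471 CPM in young and 204, 236, 196 and 375 CPM in old libraries (-0.99 ± 0.26, adjusted p = 0.0573). Of 52 G1/S and replication genes, Cdk6, a kinase that sets how fast HSCs leave quiescence, was the 1 called (1.92% higher against 1.39%). It stood at 1254, 743, 776 and 827 CPM in young and 1870, 1292, 2354 and 2828 CPM in old libraries (1.18 ± 0.23, adjusted p = 0.0069). In this list 3 genes stood higher without overlap in each genotype and 6 lower. Among the 6 were Rrm1 (-1.265, adjusted p = 0.0871) and Cdk4 (-1.42, adjusted p = 0.236). Cdk6 kept its call with each library left out. Mki67 lost it without young WT 2, young KO 4, old WT 1, old KO 3 or old KO 4 (0.0615 to 0.156), and Stmn1 without young WT 2, young KO 3, young KO 4, old WT 1 or old KO 4 (0.0501 to 0.0682).

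Among genes of quiescence and CDK inhibitors, 1 of 29 was called (3.45% against the 0.693% of all genes called lower), while 19 of the 29 had a positive change and the median was 0.18. The called gene was Foxo3, a factor that keeps HSCs quiescent, which was lower in old cells. It stood at 225, 186, 228 and 148 CPM in young and at 102, 70.7, 69.9 and 37.6 CPM in old libraries (-1.53 ± 0.36, adjusted p = 0.0312). It was called again in 2 of 8 fits, those without young KO 4 or old WT 1, and stood at 0.0608 to 0.138 in the others. Its relative Foxo1 had higher values in old cells, at 34.5, 16.4, 2.43 and 1.5 CPM in young and 99.1, 63.0, 134 and 42.3 CPM in old libraries, and missed the threshold (3.42 ± 0.94, adjusted p = 0.0719; 0.0283 in KO alone). Of DNA methylation and chromatin regulators, 2 of 49 rose and 2 fell (4.08% each, against 1.39% and 0.693%), and the sign of the median (-0.14) changed without young WT 1, young WT 2 or old WT 1 (0.01 to 0.18). Cbx3, a heterochromatin protein, fell from 376, 326, 249 and 291 to 85.6, 62.1, 143 and 77.0 CPM (-1.77 ± 0.33, adjusted p = 0.00474), and its relative Cbx1 rose by 0.65 ± 0.14 (adjusted p = 0.0145). Kmt2c, a histone methyltransferase, rose by 1.83 ± 0.40, and Suz12, a Polycomb subunit, fell by 2.50 (adjusted p = 0.0474). Cbx3 kept its call with each library left out. Cbx1 lost it without old WT 1 (0.0685) or old KO 4 (0.06), Kmt2c without young WT 2 (0.0627), young KO 3 (0.051) or old KO 3 (0.0751), and Suz12 in 7 of 8 fits, all but that without old KO 4 (0.0537 to 0.184), and with voom (0.0508).

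Single genes of protein folding and metabolism moved strongly. Hspa4, a co-chaperone of HSP70, stood at 667, 825, 1084 and 765 CPM in young and at 3521, 3010, 3136 and 2567 CPM in old libraries (1.88 ± 0.18, adjusted p = 6.19e-06). Calr, the calcium-binding chaperone calreticulin of the endoplasmic reticulum, fell from 661, 554, 726 and 575 to 164, 190, 144 and 192 CPM (-1.87 ± 0.23, adjusted p = 9.12e-05). Both were called in WT and in KO alone. Dnajb1, an HSP40, rose by 1.51 ± 0.33, and the other 42 of 45 tested chaperone genes were not called. In all, 4.44% of them were called higher and 2.22% lower, against 1.39% and 0.693% of all tested genes. The median of the chaperone list, -0.03, was above 0 under several alternatives. Ldha, lactate dehydrogenase A, rose from 267, 442, 539 and 430 to 1063, 998, 1417 and 1289 CPM (1.51 ± 0.20, adjusted p = 0.000184). It was the 1 of 18 glycolysis genes called (5.56% against 1.39%). Max, the partner of Myc, rose by 1.28 ± 0.20 (adjusted p = 0.00113), the 1 of 39 genes of Myc and ribosome biogenesis called (2.56% against 1.39%). Hspa4, Calr, Ldha and Max kept their call with each library left out, and Dnajb1 lost it without young WT 2 (0.0627), old WT 1 (0.0643) or old KO 3 (0.126).

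Of 39 genes of cytokine receptors and their feedback, Stat3 and Igf1r rose (5.13% against 1.39%) and Cbl fell (2.56% against 0.693%). Stat3, a transcription factor downstream of cytokines, stood at 27.2, 85.8, 57.4 and 34.0 CPM in young and at 149, 325, 201 and 190 CPM in old libraries (2.08 ± 0.42, adjusted p = 0.00905). Igf1r, the IGF-1 receptor, stood at 121, 152, 149 and 37.0 CPM in young and at 343, 379, 270 and 340 CPM in old libraries (1.56 ± 0.35, adjusted p = 0.0236). Stat3 missed the threshold without old WT 2 (0.0598), and Igf1r without young WT 1 (0.069) or old KO 4 (0.074). Bmp4 was the 1 gene called among 35 of TGF-beta, BMP, Wnt and Notch signalling (2.86% against 1.39%). Mt2 was the 1 among 31 of antioxidants and metallothioneins (3.23% against 1.39%). Among 37 of adhesion, Selp was called higher (2.7% against 1.39%) and Cd34 lower (2.7% against 0.693%).

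No gene was called by edgeR in the lists of NF-kB and inflammation (27 tested), MHC (19), AP-1 and immediate early factors (22), DNA repair (40), autophagy and lysosome (46), Hox and homeobox (21) or imprinted genes (14). The same held for B cell (5), mast cell (5), stroma and endothelium (9) and sex-linked genes (1). With the monocyte list these made 222 tested entries, of which 28 had an unadjusted p under 0.05 (12.6%) and DESeq2 called 18 (8.11%). Over all tested genes these shares were 11.5% and 7.19%. In simulated counts with this spread the test recovered 2.99% of changes of log2 1, 19.4% of log2 2 and 36.4% of log2 3. The changed genes were drawn at random from all tested ones, and most changes of these sizes were missed. These shares need not hold for genes of high level, such as H2-K1 of the MHC list (0.43 ± 0.15).

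**Figure D5:**
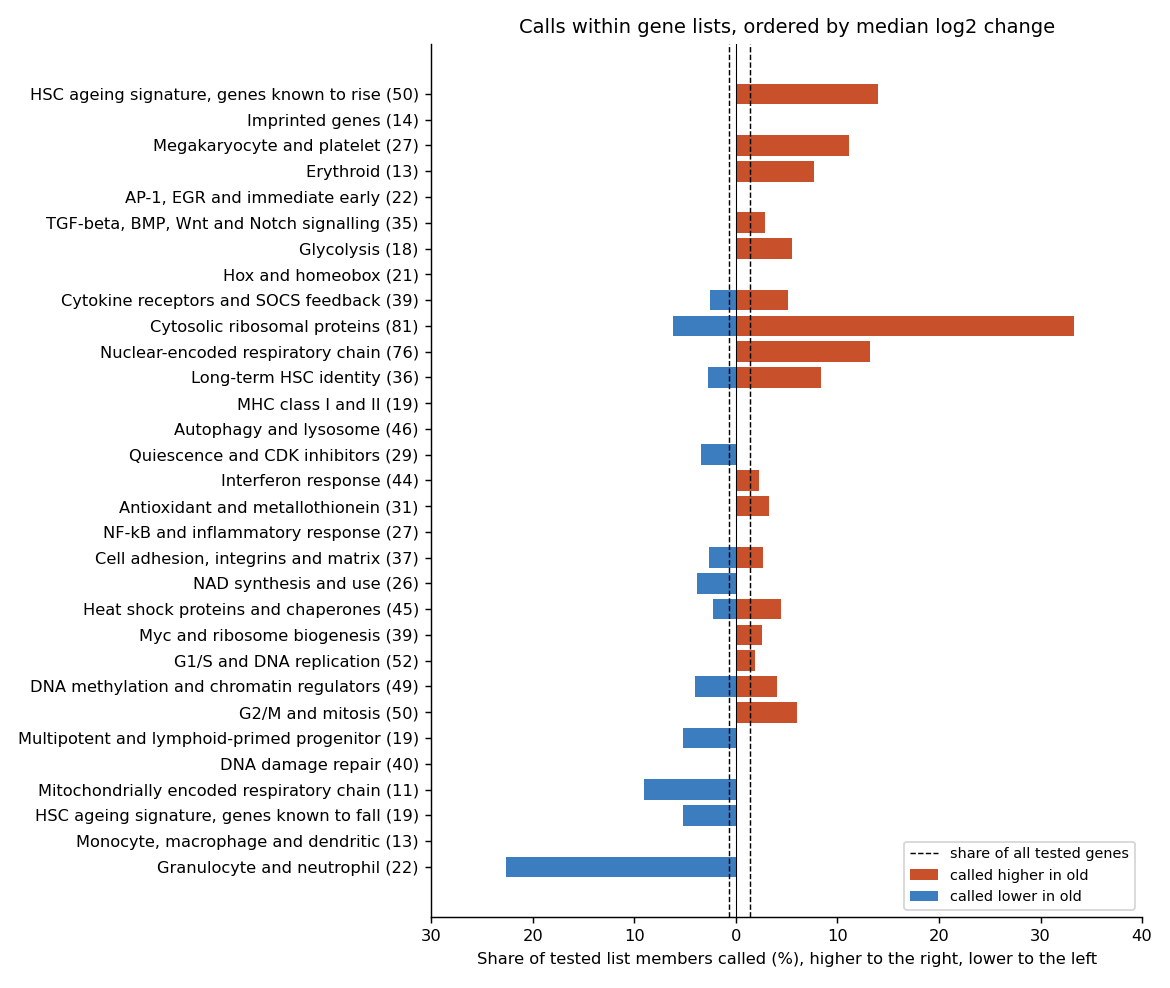
Share of tested members (%) called higher (orange, to the right) and lower (blue, to the left) in old cells, for the 31 lists with at least 10 tested members, whose number is in brackets. Dashed lines mark the shares of all tested genes, 1.39% and 0.693%; ribosomal proteins reach 33.3% higher and neutrophil genes 22.7% lower.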

How the data were processed

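RNA came from RNeasy Plus Micro columns and libraries from the QuantSeq 3′ mRNA-Seq FWD kit, per the labels' protocols. The authors deposited whole-number read counts per gene symbol, made from reads placed on mm10; the submitters' processing notes name HISAT2 2.2.1, HTSeq 0.9.1 and DESeq2 1.34.0. Annotation, strandedness and filtering of reads: not given in the sources used here, so overlapping and antisense genes may share reads.

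Here the 35976 symbols of 8 libraries were filtered with filterByExpr (minimum count 10, minimum total 15), scaled with TMM and tested in R 4.3.3 with edgeR 4.0.16 (glmQLFit, glmQLFTest), in an additive model of genotype and age with Benjamini-Hochberg adjustment. The filter left 10680 genes, with 5 residual and 13.2 prior degrees of freedom, which took all but 0.266% to 0.405% of each library's counts. An SE is the log2 change over the root of F. WT, KO and interaction values came from a fit of 4 group means. A bound used a floor of 3 counts over a group, and ratios an exact 95% interval.

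Members and the 37 gene lists (1266 entries, 7 not in the files) were chosen with earlier results of these data known. Named were Kit, Ly6a and Cd38, the 10 largest rises and falls among calls of at least 5 CPM with no overlap in either genotype, up to 4 genes per list by adjusted p, and the 3 smallest interaction p-values; genes without a name were only counted, and the text says where others were added. Replicate numbers are shared by young and old libraries. Deviations from group means correlated across genes at -0.00771 (WT) and 0.00155 (KO) between same-numbered libraries of both ages. With 2 libraries per group this is a single value per genotype, so it cannot exclude that same-numbered libraries shared a step. The main fit did not treat the numbers as pairs. Alternatives were RLE scaling, no filter, DESeq2 1.42.0, limma 3.58.1 voom with sample weights, a replicate block, counts thinned to equal depth, all 12 libraries, and each library left out. The test was tried on simulated data of 10680 genes and made 0 false calls among 9670 unchanged genes. Values of 2 genes in the lists are not reported here.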

Additional observations from a re-analysis of the deposited data

Results flagged for a closer look

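Of 56 groups of 4 libraries of 1 age (both genotypes together), 10 had a library far from the other 3, where chance flags about 1 in 20. In 6 of the 10 the other 3 libraries were at 0 or below 0.5 CPM.

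In young cells, Kit was low in KO 4, at 192 CPM against 302 to 321 CPM in the others. Gpr183 (19 CPM) and Clca3a1 (10.5 CPM) were highest in young KO 4, against at most 2.92 and 1.46 CPM elsewhere. Chrm3 had 7.26 CPM in young WT 1, Klrb1c 0.546 CPM in young WT 2 and Fiz1 0.973 CPM in young KO 3, each with 0 in the other young libraries. In old cells, Ngp was high in KO 3, at 103 CPM against 0 to 12.1 CPM. Lnpep had 4.75 CPM in old KO 4 against 0.251 to 0.443 CPM, Mmp8 0.251 CPM in old WT 1 against 0, and Tnks 0.198 CPM in old KO 4 against 0.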

How the results depend on the processing

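All 222 called genes kept their sign in every alternative run, and 203 to 222 were called again with another scaling, filter, tool, block, depth or library set (146 to 174 with a library left out). Counts of calls moved more. Rises numbered 242 with no filter, 407 with DESeq2 and 327 with all 12 libraries in the fit, and 110 to 141 with a library left out. Falls numbered 150, 361 and 250 in the same 3 settings, 123 with voom, 117 with the replicate block and 48 to 71 with a library left out. Rises without overlap numbered 347 with DESeq2, 282 with 12 libraries and 108 to 140 with a library left out; falls without overlap numbered 130 with no filter, 272 with DESeq2, 115 with voom, 199 with 12 libraries and 48 to 71 with a library left out. WT alone gave 182 calls with no filter, 508 with DESeq2, 205 with 12 libraries and 29 to 106 with a library left out. KO alone gave 201, 556, 210 and 39 to 108. The interaction gave 14, 104, 4 and 0 to 4 calls. With the replicate block, 213 genes rose and 117 fell. The labels give only a shared number, so this is no paired result.

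Leaving out a library kept the same 10680 genes. This was decided after seeing the data, because a filter applied anew to 7 libraries passed 11644 to 11973 genes and gave an infinite prior degrees of freedom, as did no filter. Those 8 fits, in the order of the libraries left out (young WT 1 to old KO 4), gave 216, 206, 238, 233, 197, 208, 186 and 181 rises and 126, 111, 129, 130, 124, 144, 109 and 105 falls. Rises without overlap ranged from 168 to 218, and falls without overlap numbered 120, 100, 118, 117, 114, 133, 101 and 97. WT gave 117, 123, 250, 252, 133, 178, 179 and 165 calls, KO gave 212, 214, 222, 277, 226, 224, 100 and 136, and the interaction 7, 26, 21, 57, 10, 30, 4 and 10. The change of Cd38, near 0, turned positive without young KO 3 (0.41), old KO 3 (0.52) or old KO 4 (0.37) and ran from -0.58 to 0.52 over the 8 libraries left out. That of Slamf1 turned negative with voom (-1.13), with the replicate block (-0.86), without young WT 1 (-0.33) or without old WT 1 (-2.11), and ran up to 0.50. With the filter applied anew these values differed by less than 0.01. The cause of these differences was not tested. With counts thinned to equal depth, 132 rises and 86 falls were called, and 203 of the 222 genes were called again.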
